A study of Mus musculus with 8 samples.

Results

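The cytosines covered on the mitochondrial genome of mouse embryonic fibroblasts (MEFs) were described in 8 NOMe-seq libraries. All sites on the mitochondrial chromosome were taken, with no filter on their level, which gave 713 of the 5365124 cytosines covered in any library. NOMe-seq adds M.CviPI, an enzyme that methylates cytosine in GpC where DNA is open to it, and bisulfite sequencing then reads the methylated cytosines. The 4 groups of 2 libraries each were day 1 of Etv2-induced reprogramming with the enzyme (treated), day 0 control MEFs with the enzyme, day 1 without it (untreated) and day 0 without it. Etv2 is a transcription factor that drives endothelial and blood fates; the labels do not say how it was introduced, whether the cells are 1 line or several, or what the day 0 cells had received. Nothing in the labels tells separate cultures from repeat libraries within a group, so p-values measure only the spread between these samples, which may be technical. Expression was not measured, and the cell type label could not be checked against markers.

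Mitochondrial DNA carries no histones. It is packed by the DNA-bending protein TFAM into nucleoids, and it encodes subunits of the respiratory chain and the rRNAs and tRNAs used to translate them. Its only long noncoding stretch, the control region, holds the promoters of both strands and the start of heavy-strand replication, and part of it can form the D-loop, in which a short extra DNA strand invades the duplex. Each cell holds many copies of the molecule.

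The 713 sites held from 18098 to 27955 reads per library, and the libraries covered from 627 to 690 of them. A site had a median of 34 and 36 reads in the day 1 treated libraries and 27 in each day 0 treated library, 38 and 37 in the day 1 untreated libraries and 27 and 24 in the day 0 untreated libraries, against a median of 3 over all sites of every library. All 8 libraries covered 582 of the sites. Mitochondrial sites took 0.926% and 0.920% of all reads over sites in the day 1 treated libraries, against 1.00% and 1.05% on day 0, and 0.781% and 0.796% in the day 1 untreated libraries, against 1.00% and 1.07% on day 0. The share was thus lower on day 1 in all libraries, by a mean of -0.176 percentage points (exact two-sided permutation, days exchanged separately with and without the enzyme, p = 0.0556, the smallest possible). Total reads over sites were higher on day 1, with 2856034 and 2917131 in the treated libraries against 2138058 and 2123335 on day 0. Untreated libraries had 3577740 and 3507942 on day 1 and 1898356 and 1693307 on day 0. The lowest count listed for a site was 3, and the part of depth in the share was not tested.

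By the RefSeq annotation of build mm10, which gives no strand, 458 sites lay in protein genes, 144 in the rRNA genes, 70 in tRNA genes, 39 in the control region and 2 in a noncoding stretch between the tRNA genes TrnN and TrnC. Sites lay in 9 of 13 protein genes, both rRNA genes and 15 of 22 tRNA genes. No site was covered for 3096 bp between chrM positions 6663 and 9760, or for 912 bp between 9908 and 10821. The longer gap holds all of COX2, ATP8, ATP6 and COX3, which were not measured, and ND3 and ND4L at its edge had 4 sites each with 77 and 109 reads over all libraries. Within 2000 bp of Gm10925, a gene on chromosome 1 (24613971 to 24614651) for which the annotation lists mt-Atp6 as another name, 0 sites were covered in any library. The control region starts at 15423, and its covered sites ran from 15489 to 16284.

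With the enzyme, mitochondrial DNA was methylated in most reads, and without it in few. The pooled level, methylated reads over all reads, was 54.6% and 54.0% in the day 1 treated libraries and 1.66% and 1.54% in the day 1 untreated libraries. On day 0 it was 63.3% and 64.1% in the treated libraries and 3.44% and 3.59% in the untreated ones. Treated and untreated libraries stood apart by 52.7 percentage points on day 1 and 60.2 on day 0, far beyond the spread between replicates (exact two-sided permutation p = 0.333 each, the smallest possible with n = 2). Pooled autosomal sites reached 31.8% in each day 1 treated library and 30.8% and 31.0% in the day 0 treated ones. The mitochondrial level was higher than the autosomal one of the same library by 22.9 and 22.2 points on day 1 and by 32.5 and 33.1 points on day 0. Since the libraries come from bulk cells, fewer methylated molecules and less methylation per molecule cannot be told apart.

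The enzyme contrast held at single genes and cytosines. In edgeR's quasi-likelihood test on methylated and unmethylated reads, 21 of 21 mitochondrial features with 20 reads in every library (20 genes and the control region) were higher in treated libraries, as were 100% of all 5243 genes tested genome-wide. The median log2 odds ratio of treated over untreated was 6.32 over these mitochondrial features and 4.97 over the nuclear genes, and the lowest was that of the control region, 3.68 (edgeR adjusted p = 3.15e-69). Of the 322 mitochondrial sites with 20 reads in every library, 322 were called higher in edgeR (98.3% of all 1648 such sites genome-wide were), with log2 odds ratios from 2.17 to 9.68.

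**Figure D1:**
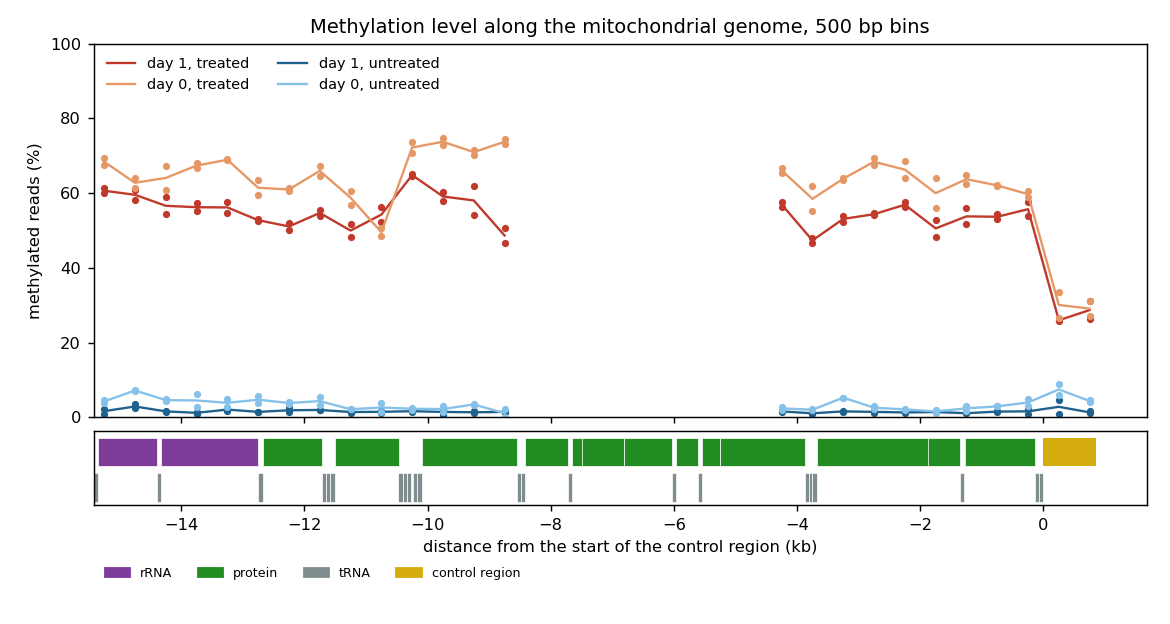
Pooled methylation level (%) in 500 bp bins along the mitochondrial genome against distance from the start of the control region (kb). Lines are group means, dots are the 2 libraries of each group, bins need 20 reads in every library, and the lower strip shows the annotated genes. Day 1 treated lies below day 0 treated in 24 of 25 bins, the treated levels drop at the control region on the right, and the empty stretch is the part with no or few covered sites.

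Between the days, the treated level of the molecule was lower on day 1, with a difference of -9.39 points that ran along nearly all of its covered length. Of the 25 bins of 500 bp with 20 reads in every library, 24 were lower on day 1. The exception, chosen after its values were seen, was the bin at -11000 bp from the control region, near the end of ND2, with 56.3% and 52.2% on day 1 and 48.5% and 50.5% on day 0. The autosomes with the enzyme were not lower on day 1. Taken against the autosomes of the same library, the mitochondrial level changed by -10.3 points between the days, and the libraries of the 2 days did not overlap (exact two-sided permutation p = 0.333, the smallest possible, n = 2). Without the enzyme the mitochondrial level was also lower on day 1, by -1.92 points, and so was the autosomal one, with 2.98% and 2.93% on day 1 and 4.66% and 5.01% on day 0. The day change with the enzyme minus that without it was -7.47 points (exact permutation, days exchanged separately with and without the enzyme, p = 0.333, with 0.0556 the smallest possible). This contrast depends on the scale. In log2 odds the median day change over the 21 mitochondrial features was -0.58 with the enzyme and -1.14 without it. Over the 322 mitochondrial sites it was -0.61 and -0.57. The lower share of mitochondrial reads on day 1 ran alongside these changes, and its part in them was not tested.

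Nuclear sites that met the same minimum depth gave another comparison. The 322 mitochondrial sites with 20 reads in every library had 54.2% and 53.3% in the day 1 treated libraries and 63.5% and 63.6% in the day 0 treated ones. The 1326 nuclear sites had 50.5% in each day 1 treated library and 47.8% and 49.2% in the day 0 treated ones. These nuclear sites were higher on day 1 and the mitochondrial ones lower, with no overlap between libraries in either. Deep nuclear sites carried far more signal without the enzyme, 27.0% and 26.1% on day 1 and 22.7% and 23.1% on day 0, where the mitochondrial ones had 1.49% and 1.55% on day 1 and 3.03% and 2.96% on day 0. Of the 322 mitochondrial sites, 196 (60.9%) were lower on day 1 in both treated libraries than in either day 0 one, against 17.1% of all sites tested.

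The rRNA genes encode the RNAs of the small and large mitochondrial ribosomal subunits, and both were lower on day 1 with the enzyme. Together their sites had 58.3% and 57.2% in the day 1 treated libraries and 66.0% and 67.6% in the day 0 treated ones. The days did not overlap, and the difference was -9.03 points (exact permutation p = 0.333, adjusted over the 4 classes 0.444). For mt-Rnr1 (chrM 70 to 1024), the small-subunit RNA, the level was 60.9% and 59.5% on day 1 and 66.0% and 66.1% on day 0. For mt-Rnr2 (chrM 1094 to 2675), the large-subunit RNA, it was 56.3% and 55.4% on day 1 and 66.1% and 68.8% on day 0. Both genes were lower on day 1 in both libraries, mt-Rnr1 by -5.82 points and mt-Rnr2 by -11.6 points. Without the enzyme they were lower on day 1 as well, by -3.48 and -2.53 points.

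Protein genes held most of the sites. Their pooled level was 54.7% and 53.9% in the day 1 treated libraries and 64.1% and 64.7% in the day 0 treated ones, a difference of -10.1 points without overlap (exact permutation p = 0.333, adjusted 0.444). Without the enzyme it differed by -1.55 points. All 7 genes with 50 or more reads in every treated library were lower on day 1 without overlap, by -14.5 to -5.83 points; of all genes tested genome-wide, 12.8% were lower on day 1 without overlap. COX1 (chrM 5328 to 6872), the catalytic subunit of cytochrome c oxidase, moved most. It had 59.3% and 56.9% on day 1 and 72.3% and 72.9% on day 0. Its day 0 level was the highest of these 7 genes, and its last covered sites lie at the edge of the long gap.

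ND1, ND2, ND4, ND5 and ND6 encode membrane subunits of complex I, the NADH dehydrogenase. ND5 (chrM 11742 to 13565), which has most reads of the molecule's genes, had 54.2% and 54.8% on day 1 and 66.4% and 66.5% on day 0. These libraries were close within each day, and the difference was -11.9 points. ND1 (chrM 2751 to 3707) averaged 52.1% ± 0.860 (SD, n = 2) on day 1 and 62.0% ± 1.49 on day 0, and ND4 (chrM 10167 to 11544), of which the start was not covered, 56.2% ± 0.979 and 66.1% ± 1.28. Both differed by about the same amount, -9.88 and -9.86 points. ND2 (chrM 3914 to 4951) averaged 51.1% ± 2.56 on day 1 and 56.9% ± 2.31 on day 0, the lowest day 0 level of the 7, and ND6 (chrM 13552 to 14070) 50.9% ± 7.24 and 59.7% ± 2.80. The spread of ND6 came close to its difference: the day 1 libraries had 56.0% and 45.8% and the day 0 libraries 57.7% and 61.6%. ND5 and ND6 share their ends by a few bases. CYTB (chrM 14145 to 15288), the cytochrome b subunit of complex III, had 54.1% and 55.0% on day 1 and 61.4% and 61.9% on day 0, a difference of -7.11 points without overlap.

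Genes were also tested with edgeR on methylated and unmethylated reads summed per gene over the whole genome, a fit added after the site results were seen. Of all 5243 genes, 0.0572% were called lower on day 1 with the enzyme at an adjusted p of 0.05, and these were 3 mitochondrial genes. Mitochondrial and nuclear genes were not matched for depth. COX1 had a log2 odds change of -0.93 (edgeR adjusted p = 3.16e-05), ND5 -0.72 (edgeR adjusted p = 0.000147) and mt-Rnr2 -0.71 (edgeR adjusted p = 0.00654). ND4 and ND1 had -0.60 and -0.58 and did not pass (edgeR adjusted p = 0.217 and 0.222). The median log2 odds change was -0.58 over the 21 mitochondrial features and 0.11 over the nuclear genes. These 3 calls depend on the tool and the libraries: limma called 0, and without any 1 treated library edgeR called 0 or 1. Without replicate 1 or 2 of the day 0 treated libraries the adjusted p of COX1 was 0.0297 and 0.0801, and without replicate 1 or 2 of day 1 0.199 and 0.999. ND5 had 0.189 without replicate 1 and 0.372 without replicate 2 of day 0, and over 0.99 without either of day 1; mt-Rnr2 had 0.189 and 0.775, and over 0.99 likewise.

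**Figure D2:**
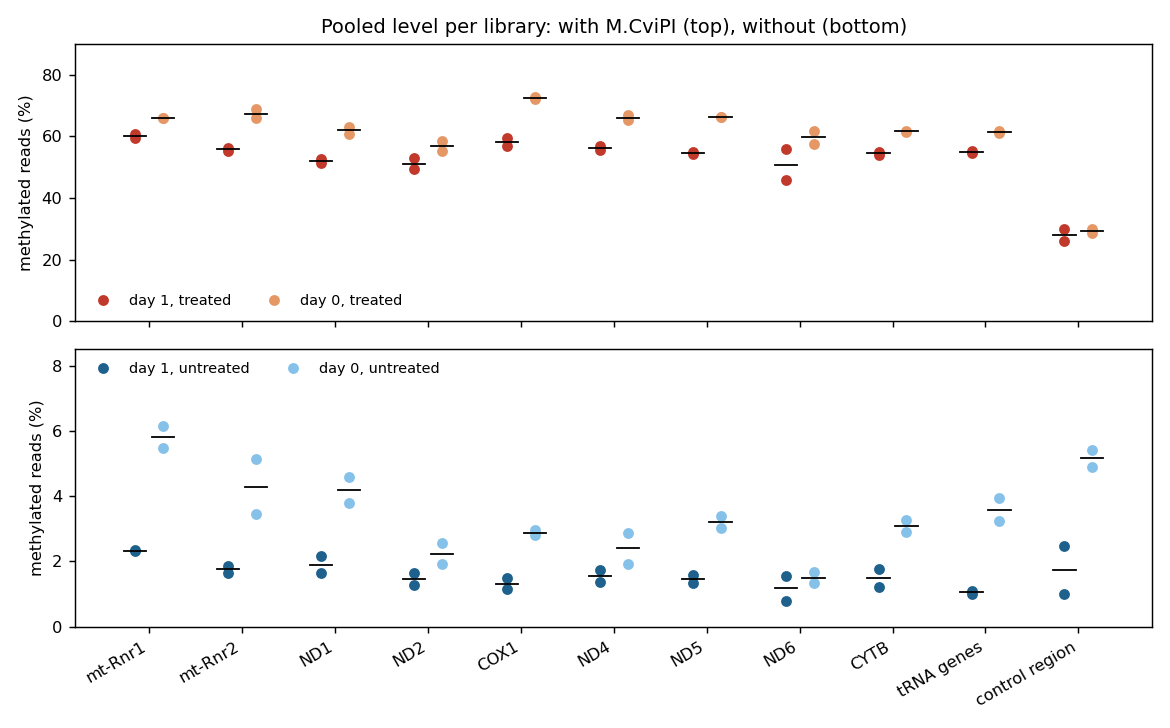
Pooled methylation level (%) of each rRNA and protein gene with 50 or more reads per treated library, of the tRNA genes together and of the control region, with the enzyme (top) and without it (bottom, on a shorter axis). Dots are libraries and bars are the mean of 2. Day 1 dots lie below day 0 dots for every gene shown in the top panel, and the control region lies far below the genes, with overlapping days.

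The tRNA genes lie singly or in clusters between the longer genes, and each holds few sites. Pooled, they had 54.6% and 55.3% in the day 1 treated libraries and 61.2% and 61.9% in the day 0 treated ones, a difference of -6.64 points without overlap (exact permutation p = 0.333, adjusted 0.444). Without the enzyme they differed by -2.54 points. Of the 8 tRNA genes with 50 or more reads in every treated library, 7 were lower on day 1, 5 of them without overlap (12.8% of all genes were, not matched for depth), and 0 were higher without overlap. TrnW, the gene of tryptophan tRNA, was the highest of the 8 on day 0; it averaged 60.8% ± 1.15 on day 1 and 71.1% ± 4.38 on day 0 (SD, n = 2). TrnL1, a leucine tRNA gene next to ND1 (chrM 2676 to 2750), was the lowest of them on both days, with 39.6% and 37.6% on day 1 and 42.1% and 38.6% on day 0. The days of TrnL1 overlapped.

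The control region stood apart from the genes. Its pooled level was 26.1% and 29.8% in the day 1 treated libraries and 28.6% and 29.9% in the day 0 treated ones. The days overlapped, and the difference of -1.28 points was within the spread between replicates (exact permutation p = 0.667). Its sign was not stable: it was 0.55 points without replicate 1 of day 1 and 1.81 points with sites of at least 20 reads. The rest of the molecule averaged 55.1% ± 0.547 on day 1 and 64.7% ± 0.479 on day 0 (SD, n = 2). Within each library the control region was lower than the rest, by -29.3 and -24.9 points on day 1 and by -35.8 and -35.2 points on day 0 (exact two-sided sign-flip permutation p = 0.125, the smallest possible with 4 libraries). This gap was narrower on day 1 by 8.36 points without overlap of the days (exact permutation p = 0.333, the smallest possible), a comparison added after the levels were seen. Without the enzyme the control region changed by -3.42 points between the days, a larger change than with it. Its untreated level was 2.46% and 1.01% on day 1 and 4.90% and 5.41% on day 0. The rest of the molecule had 1.64% and 1.56% on day 1 and 3.39% and 3.54% on day 0, so the control region was the lower of them in 1 untreated library of 4.

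Within the control region the treated level varied with position. Stretches were marked off after the values were seen and are described without a test. The first 100 bp, next to TrnP, the gene of proline tRNA, had 16.7% and 27.4% in the day 1 treated libraries and 40.0% and 25% in the day 0 treated ones. Its untreated level was high for the molecule, 16.0% and 0% on day 1 and 9.52% and 13.7% on day 0, over 50 to 63 reads, and in replicate 1 of day 1 it was close to the treated one. The lowest stretch ran from 600 to 660 bp past the start, where 6 sites with 2082 reads had 15.4% and 20.3% on day 1 and 17.7% and 18.3% on day 0. Right after it, 2 adjacent sites at chrM 16115 and 16116 had 64.6% and 64.9% on day 1 and 69.0% and 64.1% on day 0. This pair was above the mean of the rest of the molecule on day 1 (55.1%) and near it on day 0 (64.7%), and its days overlapped as well. In between, the level was 27.2% ± 2.93 and 27.0% ± 1.73 from 100 to 500 bp, and 32.5% ± 4.25 and 37.4% ± 5.72 from 500 to 600 bp, on day 1 and day 0. Beyond 16116 a single site was covered, at 16284.

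**Figure D3:**
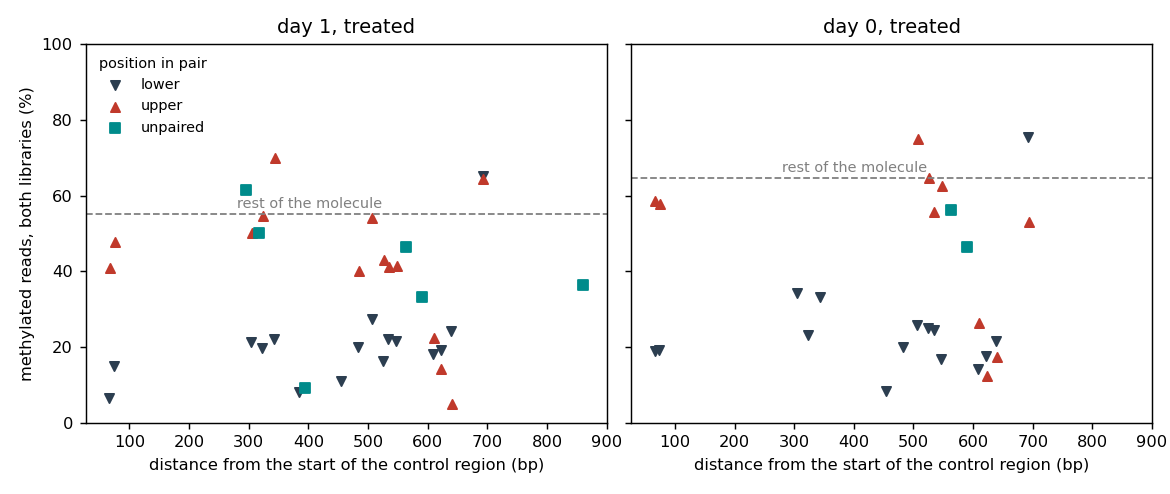
Methylation level (%) of each control region cytosine with 10 or more reads over both libraries, against distance from the start of the control region (bp), on day 1 (left) and day 0 (right) with the enzyme. Symbols mark the lower or upper cytosine of an adjacent pair and unpaired cytosines, and the dashed line is the mean of the rest of the molecule (55.1% and 64.7%). Most sites lie below the line, lower-position cytosines lie under their partners over most of the stretch, and the sites from 600 to 660 bp lie lowest.

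Among single cytosines with 20 or more reads, low treated levels were mostly found in the control region. The median site had 55.0% and 54.5% in the day 1 treated libraries and 65.0% and 66.0% in the day 0 treated ones, and from the 5th to the 95th percentile levels ran from 36.6% to 72.6% and from 37.0% to 72.4% on day 1, and from 37.1% to 79.8% and from 42.1% to 81.8% on day 0. Below 25% there were 14 and 11 sites on day 1 and 10 and 8 on day 0. Of these, 13, 10, 8 and 7 lay in the control region, which had 19, 18, 14 and 11 sites at that depth in the same libraries.

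The opposite end of the range was the noncoding stretch between TrnN (which ends at chrM 5159) and TrnC (which starts at 5192), the place of the light-strand replication origin. Its 2 sites, 5169 and 5185, had together 80.6% and 69.8% in the day 1 treated libraries and 95.8% and 76.9% in the day 0 treated ones. The days overlapped. The reads were few, from 24 to 53 per treated library, and Wilson 95% intervals, which cover counting error only, ran from 65.0% to 90.2% and from 56.5% to 80.5% on day 1 and from 79.8% to 99.3% and from 57.9% to 89.0% on day 0. Without the enzyme, 1 day 1 library had 8.77% and the other had 0 methylated of 62 reads; on day 0 both had 0, of 14 and 17 reads. The Wilson 95% intervals of these zeros reach 5.83%, 21.5% and 18.4%.

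Of the 322 mitochondrial sites tested, edgeR called 9 lower and 0 higher on day 1 with the enzyme, where 0.546% of all 1648 sites were called lower and 0.0607% higher. Without regard to calls, 289 of the 322 sites had a level lower on day 1 and 33 a higher one, with a median change of -9.92 points; the median log2 odds change was -0.61 for the mitochondrial and 0.29 for the nuclear sites. By class the median was -0.66 over 238 sites of protein genes, -0.57 over 63 of rRNA genes and -0.55 over 15 of tRNA genes. The 6 control region sites had a median of 0.23, and 5 of them were higher on day 1. The largest falls among called sites were in ND5, ND1 and mt-Rnr2. At chrM 12665 in ND5 the level was 40.0% and 42.1% on day 1 and 77.5% and 67.6% on day 0, a change of -31.5 points (edgeR adjusted p = 0.0470). At 12448 in ND5 it was 40.4% and 42.0% on day 1 and 61.7% and 83.7% on day 0 (edgeR adjusted p = 0.0420). At 3322 in ND1 it was 38.3% and 41.4% on day 1 and 70.2% and 71.1% on day 0 (edgeR adjusted p = 0.0470). Day 1 libraries lay below day 0 libraries at each of these sites, and likewise at 2025 and 1957 in mt-Rnr2, which changed by -27.1 and -26.9 points (edgeR adjusted p = 0.0470 and 0.0420). These 9 calls depend on the tool and the libraries: limma called 0, edgeR called 0 with the 4 treated libraries alone and with a minimum of 5 or 50 reads, and from 0 to 2 with any 1 treated library left out. The site with most reads, 4079 in ND2 with 813 over all libraries, had 42.1% and 38.8% on day 1 and 58.1% and 53.9% on day 0.

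**Figure D4:**
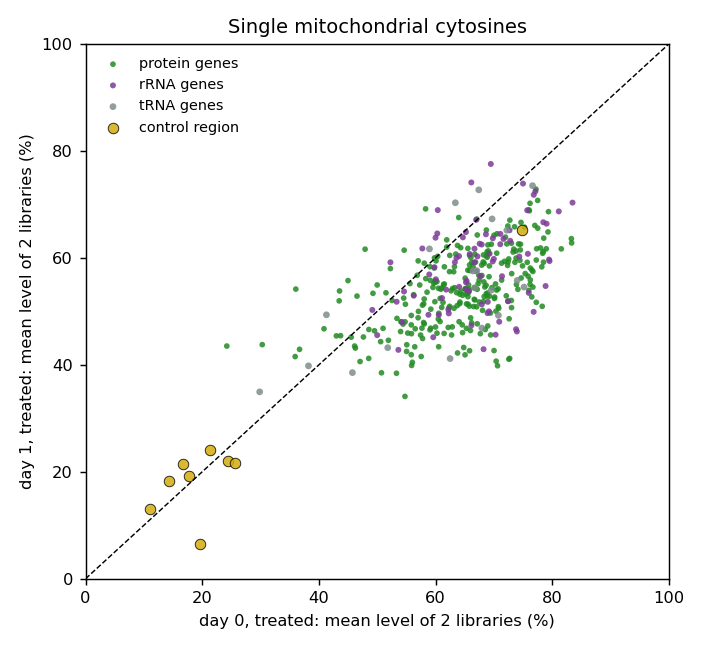
Each dot is a mitochondrial cytosine with 20 or more reads in all 4 treated libraries, with its mean level on day 0 (x axis, %) against that on day 1 (y axis, %), and the dashed line marks equal levels. Of the 398 sites 352 lie below the line, while of the 9 control region sites, most of them at the lower left, 4 do.

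Levels of single sites were compared between libraries as a description. Across the 398 sites with 20 reads in all treated libraries, the levels of the 2 day 1 libraries correlated at r = 0.547 and those of day 0 at r = 0.627, while libraries of different days had r from 0.50 to 0.579. These are correlations across sites, which share reads and the control region contrast and are not independent. The mean absolute difference at a site was 8.01 points between the day 1 libraries and 8.45 between the day 0 ones, against 12 to 12.4 points between days.

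Most covered cytosines came as neighbours. Of the 713 sites, 642 formed 321 adjacent pairs and 71 had no covered neighbour. GpC reads the same on both strands, so an adjacent pair fits the C of the complementary strand at the lower position and the C of the reference strand at the upper; the files give no base or strand, and this reading was taken from the spacing alone. The upper positions had 55.6% and 56.2% in the day 1 treated libraries and 68.2% and 68.3% in the day 0 treated ones. The lower positions had 53.6% and 52.4% on day 1 and 60.3% and 61.5% on day 0. Both positions were lower on day 1, and in all 4 treated libraries the upper position was the higher. Within pairs with 10 reads at both positions, upper minus lower averaged 1.97 and 4.15 points on day 1 and 8.81 and 6.0 points on day 0, over 227 to 262 pairs (mean of the 4 libraries 5.23, exact sign-flip permutation p = 0.125, the smallest possible). The days did not overlap in this difference, which was larger on day 0; that was not tested further. Untreated libraries showed differences from -0.0115 to 0.660 points. Reads were uneven too: the lower positions had 1.71 and 1.73 times the reads of the upper in the day 1 treated libraries and 1.99 and 2.14 times on day 0, and 1.69, 1.57, 2.07 and 2.05 times in the untreated libraries of day 1 and day 0. The part of this depth difference in the level was not tested.

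**Figure D5:**
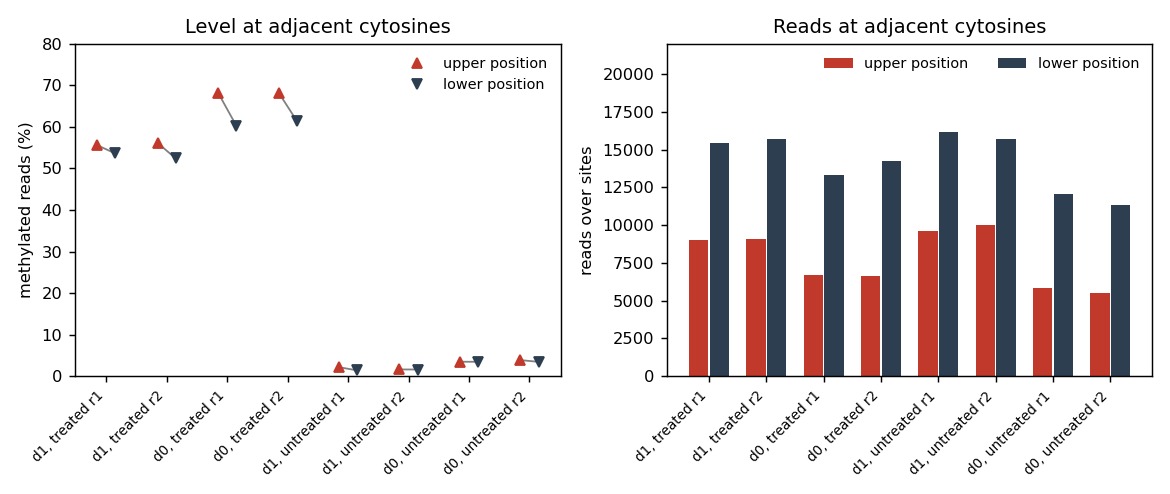
Pooled methylation level (%, left) and number of reads (right) at the upper and lower cytosine of the 321 adjacent pairs, for each library (d1 is day 1, d0 is day 0, r is the replicate). The upper position is higher in all 4 treated libraries, by more on day 0, and the lower position has more reads in all 8 libraries.

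By class, the gap between positions is given as levels, and differences between classes were not tested. In the protein genes the upper positions had 55.9% and 56.5% on day 1 and 67.9% and 69.4% on day 0, and the lower positions 53.6% and 52.2% on day 1 and 62.1% and 62.2% on day 0. In the tRNA genes the upper positions had 55.3% and 58.3% on day 1 and 67.5% and 63.5% on day 0, and the lower positions 54.0% and 53.9% on day 1 and 57.4% and 60.6% on day 0. The upper position was the higher in every treated library in both classes. In the rRNA genes the upper positions had 57.5% and 56.7% on day 1 and 72.0% and 69.1% on day 0, and the lower positions 59.3% and 57.6% on day 1 and 60.6% and 66.4% on day 0. There the upper position was the lower one in both day 1 libraries and the higher one in both day 0 libraries. In the control region the upper positions had 30.5% and 39.0% on day 1 and 41.5% and 39.6% on day 0, and the lower ones 21.6% and 21.5% on day 1 and 21.1% and 24.8% on day 0. Its upper cytosines were higher than its lower ones in every treated library.

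Nearby sites had like levels, more so on the same position. At 2 to 20 bp, sites at the same position (both upper or both lower) correlated at r = 0.650 and 0.622 in the day 1 treated libraries and 0.811 and 0.793 in the day 0 treated ones, over 184 to 228 site pairs. Sites at opposite positions, equally close, had r = 0.316 and 0.335 on day 1 and 0.411 and 0.357 on day 0. At 21 to 50 bp the values were 0.402 and 0.490 on day 1 and 0.649 and 0.551 on day 0 for the same position, and 0.143 and 0.192 on day 1 and 0.172 and 0.0106 on day 0 for opposite ones. Sites this close at the same position can share reads. If the 2 positions are the 2 strands, as read above, sites at opposite positions would share fewer. The part of shared reads in these values was not tested.

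Without the enzyme the pooled level was low, and 24 of the 25 bins of 500 bp were lower on day 1. Single sites with 20 or more reads reached 16.7% and 19.4% in the day 1 untreated libraries and 25.9% and 33.3% in the day 0 untreated ones. Among genes, the highest day 0 levels occurred where reads were few. The thinly read ND3 and ND4L, at the edge of the long gap, had 0% and 3.33% ± 4.71 on day 1 and 38.3% ± 24.4 and 24.7% ± 2.79 on day 0 (SD, n = 2), and TrnY, the gene of tyrosine tRNA, had 0.862% ± 1.22 on day 1 and 11% ± 8.06 on day 0. Untreated TrnW was not lower on day 1, with 3.08% and 3.95% there and 2.13% and 0% on day 0. Of the sites with 20 reads, 48.0% and 53.4% had 0 methylated reads in the day 1 untreated libraries and 40.0% and 41.1% in the day 0 untreated ones. The rRNA genes had 1.94% and 2.08% on day 1 and 4.61% and 5.28% on day 0, and the protein genes 1.58% and 1.45% on day 1 and 3.08% and 3.05% on day 0. The days did not overlap in either class. In edgeR 8 of the 21 mitochondrial features were called, all lower on day 1, where 4.69% of all genes were called lower. These were mt-Rnr1 (log2 odds change -1.37, edgeR adjusted p = 8.12e-07), mt-Rnr2 (-1.31), TrnL1 (-2.93), ND1 (-1.17), COX1 (-1.14), ND5 (-1.17), CYTB (-1.06) and the control region (-1.60), of which TrnL1 had the highest adjusted p, 0.0396. TrnL1 lost its call with the 4 untreated libraries alone, as did COX1, CYTB and the control region (edgeR adjusted p = 0.264, 0.10, 0.0779 and 0.0899), and the control region also without replicate 2 of day 1 (0.144). TrnL1 also lost it without replicate 1 or 2 of day 0 (0.0852 and 0.205) and without replicate 2 of day 1 (0.217). The median log2 odds change was -1.14 over the 21 mitochondrial features and -1.01 over the nuclear genes, so the mitochondrial median was near that of the nuclear genes. By level, 15 of the 21 features were lower on day 1 without overlap, against 35.2% of all genes. Neither this share of all genes nor the 4.69% was matched for depth. At single sites edgeR called 0 of 322, and 0.303% of all 1648 sites were called. In limma 27 of the 322 were called, 26 lower and 1 higher, and 3.09% of all 1648. The limma value adds 1 to both counts, so at a site with 0 methylated reads it falls as reads rise. Untreated sites had medians of 38 and 37 reads on day 1 and 27 and 24 on day 0. The part of this in the 26 lower calls was not tested. A level of 50% or more in an untreated group occurred at chrM 9907 in ND4L and 15907 in the control region, each on 5 reads in 1 day 0 library.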

How the data were processed

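Bisulfite libraries of M.CviPI-treated and untreated MEFs were read from the deposited tables, 1 per library, on mm10 per the submitters' processing notes. For the aligner, caller, duplicate handling and sequence context, nothing is given in the sources used here. The authors deposited, per cytosine, the methylated fraction rounded to 2 decimals and the read count (lowest 3); there is no header, and the units were inferred from the numbers themselves. No genome was used, so CpG context was not separated and no sequence is shown.

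Methylated reads were the rounded product of fraction and count, pooled per library. Genes came from RefSeq (mm10, no strand); the control region was taken from the end of TrnP to the last covered site. The mitochondrial sites, classes and tests were chosen with earlier results of these data known. Sites named are the called ones with the 5 largest falls (0 called rises), the deepest, and those at 50% or more in an untreated group.

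Levels were compared with exact permutation tests. Sites and genes with at least 20 reads in all 8 libraries were fitted genome-wide with edgeR 4.0.16 (quasi-likelihood, R 4.3.3) on methylated and unmethylated counts, a coefficient per library, Benjamini-Hochberg threshold 0.05. Alternatives were limma 3.58.1 on log2((methylated + 1)/(unmethylated + 1)), minimums of 5 and 50 reads, fits of the contrast's libraries alone, equal site weights, a replicate block and each library left out. The fits were tested on simulated data for the treated day contrast, with log2 odds changes of 1 and 2. At sites, edgeR found 21% and 63% of these changes and limma 13% and 39%. At genes, edgeR found 4% and 44%. A site or gene that was not called may thus have changed by this much. False calls numbered 2 in edgeR and 0 in limma among 1448 unchanged sites, and 2 in edgeR among 5043 unchanged genes. A called site or gene may thus also be false. The simulated spread between replicates was an SD of 0.1 in natural log odds for sites and 0.3 for genes, on which these rates depend. Averaged over single mitochondrial sites, replicates differed by about the sampling noise (mean chi-square 0.976 to 1.12 with 1 degree of freedom, against 1.57 to 2.17 between days), but some pooled values, such as ND6 on day 1, differed by more than their counting intervals, and the libraries covered different sites with different totals and were kept as separate samples.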

Additional observations from a re-analysis of the deposited data

Results flagged for a closer look

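The tryptophan tRNA gene TrnW had values that differed between days in opposite directions with and without the enzyme, and it passed in neither contrast. Its treated level was 60.0% and 61.6% on day 1 and 68.0% and 74.2% on day 0, a change of -10.3 percentage points. Its untreated level was 3.08% and 3.95% on day 1 and 2.13% and 0% on day 0, where 47 and 34 reads were counted. Every treated library of day 1 was lower, and every untreated one higher, than those of day 0. In edgeR the adjusted p was 0.999 with the enzyme and 0.659 without it. The untreated values rest on 2 and 3 methylated reads on day 1 and on 1 and 0 on day 0. The difference between the contrasts was not tested. The gene has 4 sites and 500 reads over all libraries.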

How the results depend on the processing

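Of 115 alternative values for 14 levels and shares, 113 kept their direction, and 2 were reversed, both for the control region's treated day change: it was 1.81 points with sites of at least 20 reads, and ranged from -3.11 to 0.55 with each library left out, positive without replicate 1 of day 1. Many of the 115 could not reverse. The replicate block leaves a difference unchanged, and where 2 groups do not overlap, leaving out 1 library cannot turn their difference. The counts of calls moved more. For treated sites the count was 0 in limma, with 5 or 50 reads, with the replicate block and with the 4 treated libraries alone, and 0 to 2 with a library left out. For untreated sites it was 27 in limma, among 51 called of all 1648, and 1 with 50 reads, among 6 called of all 357. For the enzyme contrast it was 552 (of 554) with 5 reads, among 7515 called of all 7925. With 50 reads it was 61 (of 61), among 348 called of all 357. Treated genes numbered 0 in limma, where 0 of all 5243 genes were called. With the 4 treated libraries alone they numbered 6, all lower on day 1, among 12 called of all 5243 (7 lower, 5 higher). Untreated genes numbered 4 with the untreated libraries alone, all lower, among 41 called of all 5243. The cause was not tested, beyond fewer sites tested at 50 reads. Replicate numbers did not pair the libraries (correlations of deviations from -0.05 to 0.04); with the replicate block 2 treated genes (of 3) and 7 untreated ones (of 8) were called, without mt-Rnr2 (adjusted p = 0.0551) and TrnL1 (0.0564), and pooled day changes of -9.39 and -1.92 points were the same with p = 0.5, the smallest such pairs allow. Of the 11 calls of genes or the control region (3 treated, 8 untreated), 0 reversed in any alternative. The treated and untreated calls differed in how they held. In limma all 3 treated calls were lost and all 8 untreated ones kept. With the treated libraries alone all 3 treated calls were kept. With the untreated libraries alone TrnL1, COX1, CYTB and the control region lost theirs. Leaving out a library moved the calls too, as given above. Restriction to GCH trinucleotides was not run, since it needs the genome sequence. With 2 libraries per group no level could pass 0.05 under any setting.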
